A study of Mus musculus with 8 samples.

Results

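Letm1 and Timm10, nuclear genes whose proteins serve the mitochondrial inner membrane, were followed in hearts of mice lacking Mfap4, the gene of an extracellular matrix glycoprotein. They were represented by 3 of the 20160 cDNA clones on the arrays. Clones MG-3-57p16 and MG-6-44o8 both carry the Letm1 transcript accession NM_019694 (Entrez gene 56384), and MG-68-175p16 carries the Timm10 accession NM_013899 (gene 30059). The clones were taken by these identifiers, each printed as 1 spot per array, and the genes had been picked because earlier results of the same arrays placed MG-3-57p16 low and Timm10 high. Their ratios of knockout over pool are therefore given as a description, with no test.

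Heart RNA of 4 male MFAP4-/- mice on the C57BL/6N background, aged 19 weeks, was hybridised singly against 1 pool of heart RNA from male wild-type mice of the same age and background. Each mouse was put on 2 spotted cDNA arrays, once labelled in Cy5 and once in Cy3, with the pool in the other dye, which gives 8 arrays. The labels list 4 mice in the pool, while the labelling protocol speaks of 6 control animals. No control mouse was measured alone, so the spread between control mice is not in any value, and the labels used here do not say how the deletion was made.

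LETM1 sits in the inner mitochondrial membrane, where it takes part in the exchange of cations against protons and in keeping the organelle's volume and cristae in shape. TIMM10 is a small chaperone of the space between the membranes. Together with TIMM9 it takes hydrophobic carrier proteins from the pore of the outer membrane and hands them to the TIM22 insertion complex of the inner membrane. Heart muscle is rich in mitochondria, whose carrier proteins depend on this import.

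No spot was named Mfap4, so the deletion could not be checked on the arrays. Of 25 cardiomyocyte markers, 3 were named on the arrays (Mybpc3, Myom2 and Tcap), and all 3 lay well above background in over 8 of the 16 channels. Well above background means here a spot median more than 2 SD of the local background pixels above the local background. Of the markers of other cell types, 14 were named and 1, Lyz2 of macrophages, met the same count. Across all spots, 9.83% to 33.6% per array were well above background in the knockout channel and 5.18% to 16.2% in the pool channel. The RNA is of whole hearts, in which fewer cells of a type and less RNA per cell cannot be told apart.

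The first Letm1 clone, MG-3-57p16, gave a strong spot. Above its local background it had 1424, 890, 654 and 604 intensity units in the knockout channel of mice 1 to 4, against 1576, 1046, 272 and 361 units in the pool channel, when the mouse was labelled in Cy5. With the mouse in Cy3 it had 2002, 1005, 437 and 447 units in the knockout channel, against 2315, 806, 1136 and 1430 units in the pool channel. Before normalization the order of the channels thus differed between arrays: the knockout channel was the brighter one on 3 of them, mice 3 and 4 in Cy5 and mouse 2 in Cy3. Each array's ratios were then centred with loess, which removes the part of the log2 ratio that varies with spot brightness. The mean brightness of this clone lay at the 96.2nd percentile of the tested clones.

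After this step the log2 ratio of MG-3-57p16, knockout over pool, was -0.43, -0.50, -0.24 and -0.80 in mice 1 to 4 with the mouse in Cy5, and -0.12, -0.21, -0.50 and -0.88 with the mouse in Cy3. All 8 arrays lay below 0. Averaged over the 2 arrays of a mouse the values were -0.28, -0.36, -0.37 and -0.84, with a mean of -0.46 ± 0.26 (SD, n = 4 mice), a fold of 0.727. Mouse 4 stood clearly lower than the other mice, which lay close together. The mean over the other mice was -0.33. Of all 8142 tested clones, this one had the 151st lowest ratio.

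The mean was negative in both dye orientations, -0.49 ± 0.23 (SD, n = 4 arrays) with the mouse in Cy5 and -0.43 ± 0.34 (SD, n = 4 arrays) with the mouse in Cy3. Since all 8 arrays lay below 0, this sign follows for any subset of them, also for both pairs of mice that differ in their files. In mice 3 and 4, on whose arrays between 28.2% and 43.0% of spots carry a flag, the mean was -0.61, against -0.32 in mice 1 and 2, whose arrays carry none. Mouse 4 lay at -0.84, while mouse 3, at -0.37, lay close to mouse 2, at -0.36. None of the 3 clones was flagged on any array.

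On 1 of the arrays with the lowest Letm1 ratios, that of mouse 4 in Cy3, the pixels around the spot were uneven. Their SD in the knockout channel was 582 units, against a median of 58 over all spots of that array, and 2.98% of spots had a value as large. There the spot lay 0.768 SD above its background, although its median was 4.66 times that background. On the other 7 arrays the knockout channel lay between 7.98 and 27.9 SD above background. The array of mouse 4 in Cy5 had a local SD of 29 units and gave a ratio of -0.80, and with mouse 4 taken from that array alone an alternative chosen after seeing the data, the mean of the 4 mice was -0.45.

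**Figure D1:**
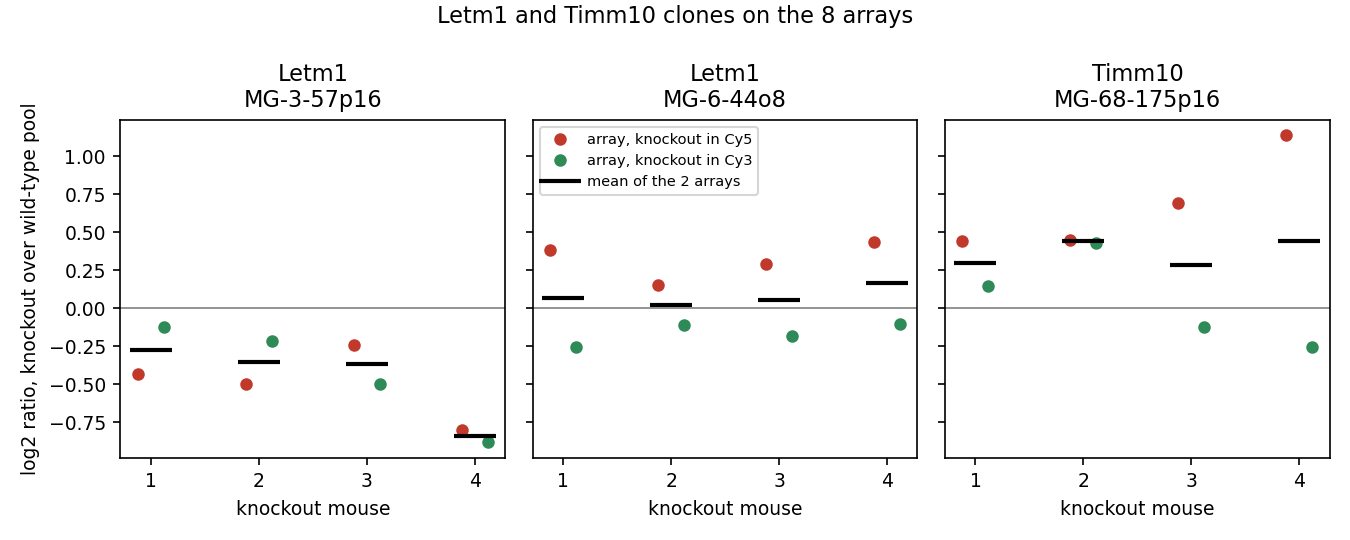
Log2 ratio of knockout over wild-type pool (vertical axis) for each of the 4 knockout mice (horizontal axis) and the 3 clones; dots are single arrays, red with the mouse in Cy5 and green with the mouse in Cy3, and black bars are the mean of the 2 arrays. MG-3-57p16 lies below 0 on all 8 arrays, while MG-6-44o8 lies above 0 on the 4 arrays in Cy5 and below 0 on the 4 in Cy3.

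The second Letm1 clone, MG-6-44o8, did not share this. Its log2 ratio was 0.39, 0.15, 0.29 and 0.44 in mice 1 to 4 with the mouse in Cy5, and -0.26, -0.11, -0.18 and -0.10 with the mouse in Cy3. The orientations did not overlap: every array in Cy5 lay above 0 and every array in Cy3 below. With loess within each print tip this split by sign did not hold, and 6 of 8 arrays lay above 0. The share of all clones with such a split was not counted. It cannot exceed 18.7%, the share of clones whose ratio was higher in Cy5 than in Cy3 in 4 of 4 mice. Averaged within each mouse the values were 0.065, 0.023, 0.055 and 0.17, with a mean of 0.078 ± 0.063 (SD, n = 4 mice), a fold of 1.06. Without mouse 4 it was 0.048. The mean was 0.32 ± 0.12 (SD, n = 4 arrays) in Cy5 and -0.16 ± 0.073 (SD, n = 4 arrays) in Cy3, so the average rests on 2 values of opposite sign.

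MG-6-44o8 was well above background in 4 of 8 knockout channels and in 2 of 8 pool channels. Its spot median was between 1.67 and 2.68 times the local background in the knockout channel, against 1.32 to 2.25 times in the pool channel. For MG-3-57p16 these spans were 4.66 to 11.9 times in the knockout channel and 3.59 to 10.6 times in the pool channel, and its counts were 7 of 8 knockout channels and 8 of 8 pool channels.

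Within each mouse, MG-3-57p16 lay below MG-6-44o8. The difference in log2 ratio, the first clone minus the second, was -0.34, -0.38, -0.42 and -1.01 in mice 1 to 4, with a mean of -0.54 ± 0.32 (SD, n = 4 mice). It was negative on 7 of 8 arrays, the exception being mouse 1 in Cy3 at 0.14. The difference averaged -0.81 in Cy5 and -0.27 in Cy3. Of the tested genes, 23 had 2 clones, and their ratios differed by a median of 0.088 on the log2 scale, with quartiles of 0.044 and 0.15. The 2 Letm1 clones lay furthest apart of the 23 pairs, and the next pair differed by 0.30. Since Letm1 was chosen for the ratio of 1 of these clones, its rank among the pairs is a description. The sources used here do not give the part of the transcript that each clone covers.

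Timm10, on clone MG-68-175p16, lay high, but on spots close to background. Above the local background it had 213, 91, 107 and 93 intensity units in the knockout channel of mice 1 to 4, against 142, 60, 25 and 10 units in the pool channel, with the mouse in Cy5. With the mouse in Cy3 it had 216, 161, 62 and 82 units in the knockout channel, against 193, 87, 99 and 162 units in the pool channel. The knockout channel was thus the brighter one on 6 of 8 arrays, and the pool channel on the arrays of mice 3 and 4 in Cy3. The spot was well above background in 2 of 8 knockout channels and 1 of 8 pool channels. On the Cy5 arrays of mice 2, 3 and 4 the pool channel lay 0.085, 0.455 and 0.083 SD above its background.

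The normalized log2 ratio of Timm10 was 0.44, 0.45, 0.69 and 1.14 in mice 1 to 4 with the mouse in Cy5, and 0.15, 0.43, -0.12 and -0.25 with the mouse in Cy3. All Cy5 arrays lay above 0, and the Cy3 arrays were divided, mice 1 and 2 above and mice 3 and 4 below. The highest value, 1.14, came from the array whose pool spot was 131 units on a background of 121. Averaged within each mouse the values were 0.30, 0.44, 0.29 and 0.44, with a mean of 0.37 ± 0.088 (SD, n = 4 mice), a fold of 1.29 and the 60th highest of 8142. The 4 mice lay closer together than any of their dye pairs except that of mouse 2.

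The mean Timm10 ratio was 0.68 ± 0.33 (SD, n = 4 arrays) in Cy5, a fold of 1.60, and 0.052 ± 0.30 (SD, n = 4 arrays) in Cy3, a fold of 1.04. The average over both orientations was 0.36 in mice 3 and 4 and 0.37 in mice 1 and 2. The gap between the orientations, ratio in Cy5 minus ratio in Cy3, averaged 1.10 in mice 3 and 4 and 0.16 in mice 1 and 2, a contrast of 2 mice with 2 that was not tested.

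**Figure D2:**
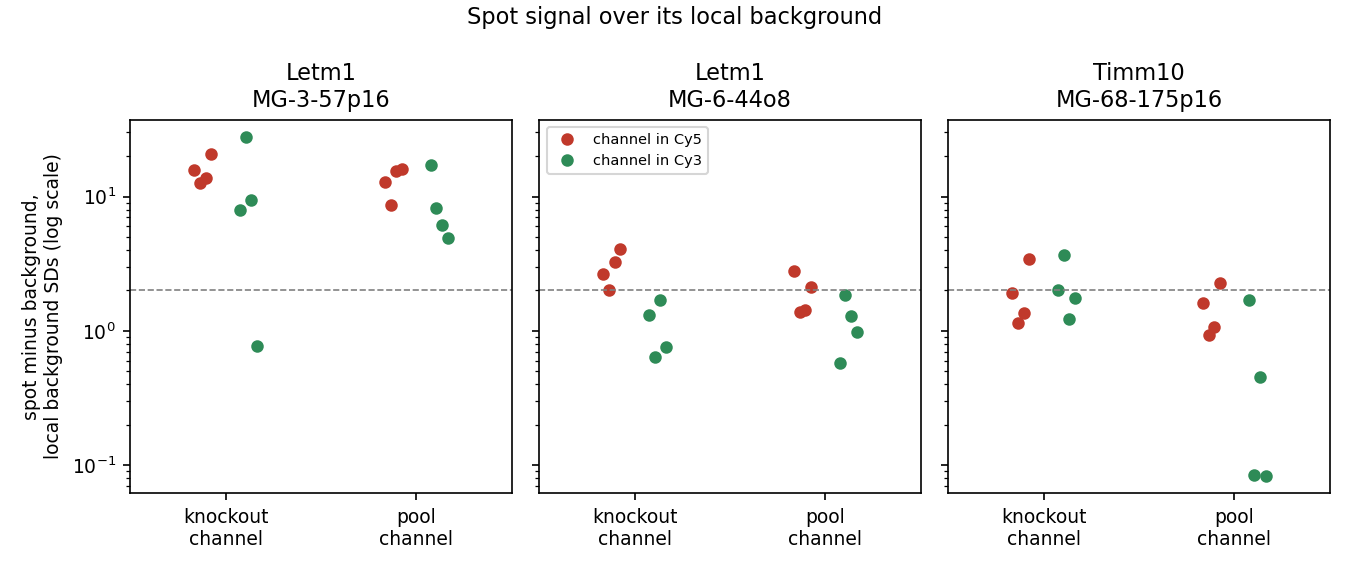
Spot median minus local background median, in units of the local background SD (vertical axis, log scale), in the knockout and in the pool channel of the 8 arrays, for the 3 clones; each dot is 1 channel of 1 array, coloured by the dye of that channel, and the dashed line marks 2 SD. For Timm10, 1 of 8 pool channels lies above the line, and for MG-3-57p16 all 8 do.

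Whether a clone read differently in the 2 orientations is a question apart from its mean ratio, and it was tested over all 8142 clones on the difference within each mouse, ratio in Cy5 minus ratio in Cy3. In limma's test none of the 3 clones passed an adjusted p of 0.05, where 11.1% of all clones did. That share counts 903 clones, and 143, 744, 39 and 17 clones passed when mouse 1, 2, 3 or 4 was left out. The difference was 0.48 ± 0.15 for MG-6-44o8 (SE, limma adjusted p = 0.0781; above 0 in 4 of 4 mice) and 0.63 ± 0.23 for Timm10 (adjusted p = 0.113; above 0 in 4 of 4 mice). For Timm10 it was 0.38 without mouse 4 (limma adjusted p = 0.385), 1.06 at a normexp offset of 10, 1.41 with plain subtraction and 1.24 with the authors' deposited table, and it passed in none of the alternatives run. For MG-3-57p16 it was -0.063 ± 0.17 (adjusted p = 0.825; above 0 in 2 of 4 mice). A difference above 0 in 4 of 4 mice was found for 18.7% of all clones. For MG-6-44o8 the call depended on the setting: it passed among the brighter clones alone (limma adjusted p = 0.0459, where 13.3% of clones passed) and with no background correction (limma adjusted p = 0.0467, where 15.4% passed). It passed in no other alternative, where the limma adjusted p reached 0.149 with all spots kept, 0.190 with print-tip loess (a difference of 0.30), 0.247 with the authors' deposited table, and 0.199, 0.253 and 0.242 without mouse 1, 3 or 4.

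How far the ratios stand up to processing also differed between the genes. The log2 ratio of Timm10 followed the handling of background: 0.15 with none, 0.37 with normexp at an offset of 50 as used here, 0.59 at an offset of 10 and 0.75 with plain subtraction. It stayed above 0 in 4 of 4 mice in each of these. MG-3-57p16 moved little over the same settings, between -0.47 and -0.42, and instead followed the normalization. With each array centred on its median in place of loess its mean was -0.19, and 3 of 8 arrays lay above 0, between -1.18 and 0.64 in all. With the authors' deposited value table it was -0.21, again with 3 of 8 arrays above 0. In both of these settings the mean of each mouse still lay below 0 in 4 of 4 mice.

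**Figure D3:**
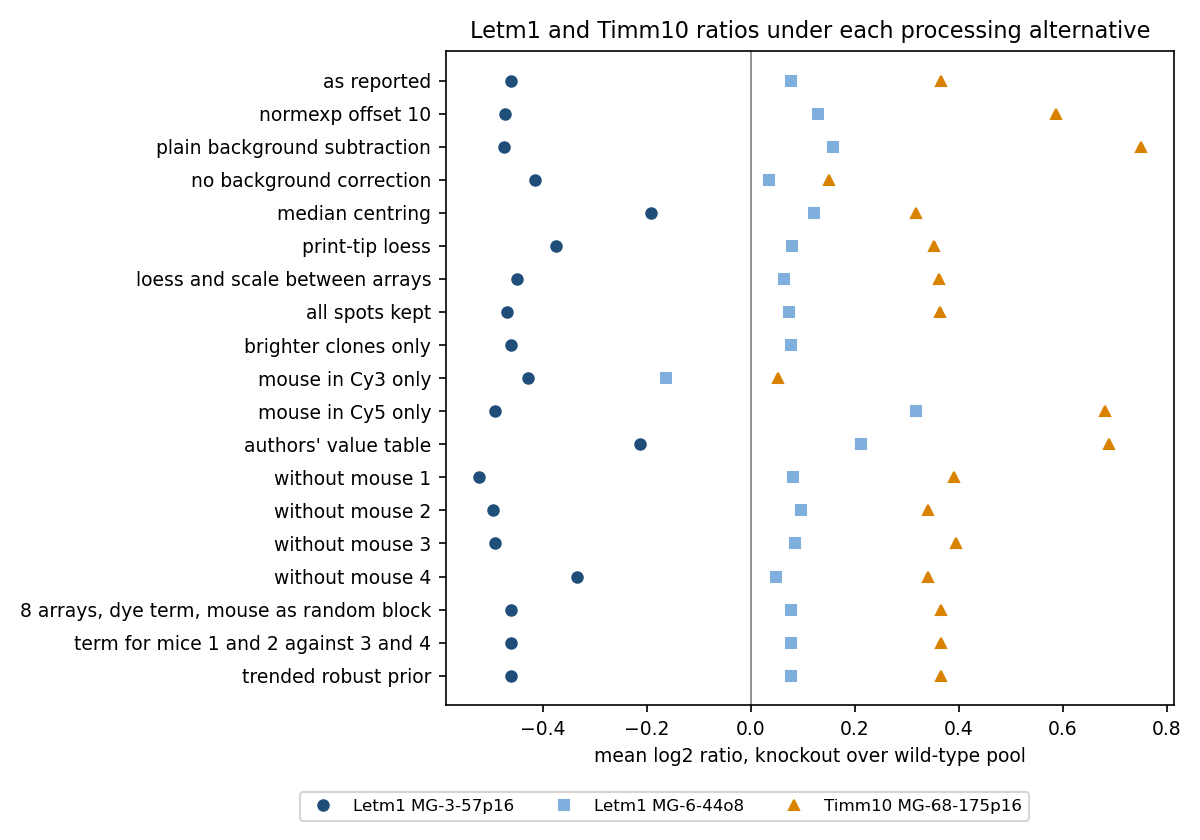
Mean log2 ratio of knockout over wild-type pool (horizontal axis) of the 3 clones under each processing alternative (rows); Timm10 is missing from the row of brighter clones because its mean brightness lies at the 48.3rd percentile. Timm10 runs from 0.052 to 0.75 and MG-3-57p16 from -0.52 to -0.19, each on 1 side of 0, while MG-6-44o8 lies on both sides. The rows of brighter clones, random block, mice 1 and 2 against 3 and 4, and trended prior repeat the reported means by design.

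The contrast of knockout with pool over the whole array gives the background for these values. Among 8142 clones limma called 0 at an adjusted p of 0.05 (0%) in the setting used here, and 936 (11.5%) had an unadjusted p under 0.05. Other settings called between 0 and 848 clones, and no call is given for the 3 members in any of them. A mean below 0 in 4 of 4 mice, as for MG-3-57p16, was found for 8.49% of clones, and values below 0 on all 8 arrays for 1.47%. A mean above 0 in 4 of 4 mice, as for Timm10 and MG-6-44o8, was found for 12.3%. The members were picked on this contrast, so nothing is read from these shares.

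Other genes of mitochondrial import, ion transport and energy metabolism were thinly represented. Of 259 genes in 10 lists, Letm1 and Timm10 left out, 12 were named on the arrays and 9 were tested. Limma called 0 of the 9 at an adjusted p of 0.05, as it called 0 of all 8142 clones. None of the 9 had an unadjusted p under 0.05, where 936 of the 8142 (11.5%) did. The unadjusted count was 2 with median centring, where 1922 of 8142 clones had such a p, and 1 without mouse 1, where 883 of 8142 did. It stayed at 0 in the other alternatives run. With 9 genes, nothing is read from these counts. The log2 ratio was positive for 6 of the 9 and negative for 3, where 4764 of all tested clones were positive and 3378 negative. Its median was 0.057, against 0.025 over all tested clones. With median centring the median of the 9 was 0.20, and without mouse 1 or without mouse 4 it was 0.099. Of the 24 genes in the list of TIM chaperones and translocases, Timm10 was the only one named on the arrays, so its partner Timm9 had no value.

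Of the import machinery, Tomm40, which forms the pore of the outer membrane, lay at 0.13 ± 0.075 (limma SE, n = 4 mice; adjusted p = 0.549), above 0 in 4 of 4 mice and between 0.093 and 0.18. Htra2, a serine protease of the space between the membranes, lay at 0.057 ± 0.083, at 0.0078 without mouse 3, 0.035 without mouse 4 and 0.099 without mouse 1. Among genes of cristae and the inner membrane scaffold, Apool, a subunit of the MICOS complex at cristae junctions, had the highest ratio after Timm10, 0.24 ± 0.12 (adjusted p = 0.481). This value rested on mouse 2, at 0.63, and was 0.12 without it. Stoml2, a scaffold protein of the inner membrane, lay at 0.16 ± 0.10 (adjusted p = 0.592), at 0.078 without mouse 2, 0.099 without mouse 4 and 0.24 without mouse 3.

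Of the enzymes and carriers, Atp5a1, the alpha subunit of ATP synthase, lay at -0.10 ± 0.085 (adjusted p = 0.682), and at -0.047 without mouse 1 and -0.16 without mouse 3. Atpif1, an inhibitor of the same enzyme, lay at 0.10 ± 0.079, with -0.12 in Cy5 and 0.32 in Cy3; without mouse 2 it lay at 0.056. Idh3g, a subunit of the NAD-dependent isocitrate dehydrogenase, lay below 0 in 4 of 4 mice, at -0.080 ± 0.076 (adjusted p = 0.726). The aspartate and glutamate carrier gene Slc25a13 lay at 0.042 ± 0.090, at -0.0055 without mouse 1, 0.0013 without mouse 2 and 0.12 without mouse 4. The ratio of its other tested clone differed from this one by 0.17. Slc25a45, of the same carrier family, lay at -0.0074 ± 0.083, at -0.064 without mouse 3 and 0.044 without mouse 4. Spot flags kept 3 further genes of the lists out of the test, named here after their values were seen. With all spots kept, Mcub, a subunit of the mitochondrial calcium uniporter, lay at -0.036 ± 0.082, the import cochaperone gene Tomm34 at -0.058 ± 0.10 and the complex I gene Ndufb3 at 0.12 ± 0.080 (limma SE, n = 4 mice).

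**Figure D4:**
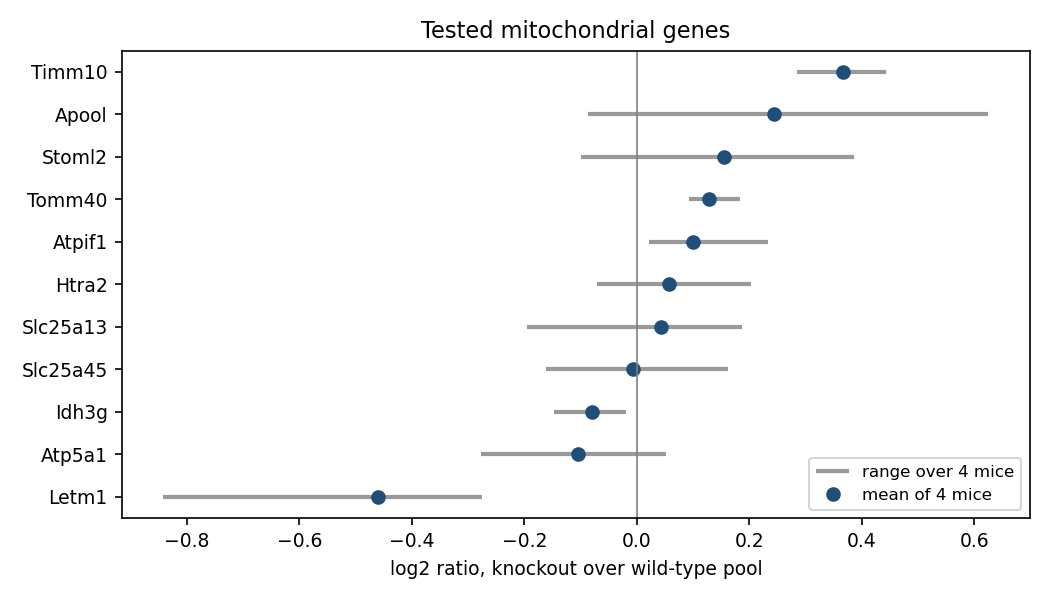
Log2 ratio of knockout over wild-type pool (horizontal axis) of the 11 tested mitochondrial genes (rows), by the brightest tested clone of each; dots are means of 4 mice and bars run from the lowest to the highest mouse. Letm1 at -0.46 and Timm10 at 0.37, which were picked for these ratios, are the lowest and the highest, and the other 9 lie between -0.10 and 0.24. The dimmer Letm1 clone MG-6-44o8, not drawn, lay at 0.078, and the Timm10 spot was close to background.

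The 3 clones had different patterns over the arrays. Pearson's r of the log2 ratios over the 8 arrays was -0.27 between the 2 Letm1 clones, 0.036 between MG-3-57p16 and Timm10, and 0.79 between MG-6-44o8 and Timm10. MG-6-44o8 and Timm10 share higher values on the Cy5 arrays. The 8 arrays come from 4 mice and share the pool and the dye orientations, so these values describe the arrays only.

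Among the 606 other tested clones with a gene name, those most like MG-3-57p16 over the 8 arrays were Hltf, a helicase-like chromatin protein, with r of 0.887, Tusc2 with 0.870, the membrane protease gene Adam10 with 0.842, the exonuclease gene Isg20 with 0.824 and the phosphatase gene Ppm1g with 0.820. Hltf and Isg20 also had low ratios, -0.67 and -0.52, while Tusc2, Adam10 and Ppm1g lay at 0.091, -0.0075 and -0.086. Clones among those most like Timm10 were Lrrc14b with r of 0.972, 4921524J17Rik with 0.936, the laminin gene Lama5 with 0.921 and the ubiquitin ligase gene Ube4b with 0.903. Their mean ratios lay between -0.054 for Ube4b and 0.098 for Lrrc14b, below that of Timm10. These 4 were all higher in Cy5 than in Cy3, as Timm10 was: Lrrc14b lay at 0.30 and -0.10, and Lama5 at 0.38 and -0.26. They were picked for likeness to Timm10 over the same arrays, so a shared split between the dyes is partly built into the choice.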

How the data were processed

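The deposited scanner files give, per the file headers, median spot and local background intensity and pixel SDs for Cy5 and Cy3, with the percent of pixels above background and a spot flag; no normalization is recorded. The authors' deposited value table gives 1 score per spot, with its scale, direction and centring unstated. Matched by row number, the scores ranked spots as the background-subtracted log2 of mouse over pool did (Spearman's rho across spots at least 0.998) and for nearly all spots differed from it by 1 constant per array, whose origin is unknown; column medians lay between -0.58 and 0.024, and each array was centred before use, with values beyond 20 left out. The sources used here do not name the image software.

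Intensities were corrected with normexp (offset 50) and centred by loess (span 0.3) in limma 3.58.1 under R 4.3.3, with flagged spots left out. From the dye labels every ratio was given as knockout over pool, spots of a clone were averaged, and the 2 arrays of a mouse averaged, giving n = 4 mice. Clones with values on all 8 arrays, 8142 of 20160, were tested against 0 with Benjamini-Hochberg adjustment; the dye difference was tested likewise. The pool counts as 1 control sample, and the 4 mice and this single pool limit the precision. The offset compresses the ratios of dim spots.

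Clones were named through the RefSeq table of GRCm38.p6: of 20205 spots, 964 matched a transcript, 7 a symbol and 493 a synonym. The files name no build, so no coordinates are given. Random blocks used statmod 1.5.0 and figures matplotlib 3.10.9. The fits were tested on simulated data. Members, gene lists and tests were chosen with earlier results of these data known. Genes named beside the members are every tested gene of the import and cation lists, the highest and lowest of each other list, and the 5 genes most like each of MG-3-57p16 and Timm10, of which 1 is not reported here. Brighter clones are the 4071 above the median brightness.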

Additional observations from a re-analysis of the deposited data

Results flagged for a closer look

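In 2 of 16 sets of values examined for these clones (4 mice, 4 arrays or 8 arrays each), the lowest value stood far apart. Chance would give about 0.8 such sets if they were independent and the clones not picked for their ratios. Neither holds here, so the 2 found are not weighed against that number. The first is Letm1 clone MG-3-57p16 over the mice: -0.84 in mouse 4 against -0.37 in its nearest neighbour, which is 0.834 of the whole range. The second is the difference between both Letm1 clones: -1.01 in mouse 4 against -0.42 in its nearest neighbour, which is 0.874 of the whole range. These sets share the values of MG-3-57p16 and are not independent. Without mouse 4 the means were -0.33 for the clone and -0.38 for the difference.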

How the results depend on the processing

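Of 3 clones, MG-3-57p16 kept its sign in all alternatives and moved by over 1 SD only with median centring (-0.19). Not all alternatives could change it. Brighter clones, the random block, the term for mice 1 and 2 against 3 and 4, and the trended prior leave a clone's mean unchanged. With all 8 arrays below 0, leaving out a mouse or keeping 1 dye could not turn its sign. With each mouse mean above 0, leaving out a mouse could not turn the sign of Timm10 or MG-6-44o8 either. Timm10 kept its sign and moved with an offset of 10 (0.59), plain subtraction (0.75), no background correction (0.15), the mouse in Cy3 only (0.052) or Cy5 only (0.68) and the authors' value table (0.69). MG-6-44o8 moved with plain subtraction (0.16), Cy3 only (-0.16), Cy5 only (0.32) and the authors' table (0.21). With 1 mouse left out the means of MG-3-57p16 ran from -0.52 to -0.33, those of Timm10 from 0.34 to 0.39, those of MG-6-44o8 from 0.048 to 0.096 and the difference between the Letm1 clones from -0.60 to -0.38. Its span over all alternatives was -0.81 to -0.27.

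The dye difference of MG-3-57p16, not called in any setting, turned to 0.75 with median centring, 0.093 with print-tip loess and 0.61 with the authors' table (-0.17 to 0.019 with 1 mouse left out). That of MG-6-44o8 passed with no background correction (0.36) and among brighter clones (0.48), and that of Timm10 in none; with 1 mouse left out they ran from 0.43 to 0.55 and from 0.38 to 0.83. Dye differences called over all clones numbered 903 of 8142. The count was 1253 with no background correction, 1222 with a trended robust prior, 1093 with median centring, 892 with scaling between arrays and 704 with print-tip loess. It was 523 of 20160 with all spots kept, 428 at an offset of 10, 542 of 4071 (13.3%) among brighter clones and 17 to 744 with 1 mouse left out. Limma called 0 with plain subtraction (2087 at an unadjusted p under 0.05) and 0 with the authors' table (3083). Knockout calls over all clones, 0 as reported, numbered 136 with median centring (73 higher, 63 lower), 119 among brighter clones (8 higher, 111 lower), 848 with Cy5 only, 0 to 87 with 1 mouse left out (87 without mouse 1, 0 without any other), 169 with 8 arrays, a dye term and mouse as random block, and 92 with a trended robust prior. Calls among the other mitochondrial genes numbered 0 in all 9 alternatives run. The causes were not tested. The dye difference is paired within each mouse. Knockout mice could not be paired with control mice, because the pool is 1 sample. Spots near background limit Timm10 and MG-6-44o8.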
